A study of Mus musculus with 120 samples.

Results

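Heterozygotes at the marker *D2Mit297* on proximal Chromosome 2 (25.5 cM on the map of the genotype table) were set against homozygotes for either allele, over all transcripts measured in the liver. Of 60 F2-*ob/ob* mice of the C57BL/6J by BTBR cross, 27 were called H at this marker, 32 were called A or B, and 1 had no call and was left out. The members are therefore 54 arrays of heterozygotes and 64 arrays of homozygotes out of 120, since the labelled RNA of each mouse went to 1 MOE430A and 1 MOE430B array. The homozygotes were 12 mice with genotype A and 20 with genotype B. Which founder each letter stands for is stated in none of the sources, and the genotypes keep their letters here.

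All mice of every genotype carried the *ob* mutation on both chromosomes and so lacked leptin, the fat-derived hormone that limits food intake, and no lean animal is part of the comparison. They were 14 weeks old, had been fasted for 4 h, and had been picked for arrays from a larger F2 sample by their marker genotypes. The sexes were not evenly spread over the genotypes. The heterozygotes were 19 females and 8 males (70.4% female), and the homozygotes 11 females and 21 males (34.4% female). The odds ratio was 4.53 (p = 0.00887, Fisher's exact test, two-sided). Values for females and males alone, and with sex as a covariate, are therefore given beside the pooled ones. Each mouse was a separate animal, so the errors measure the spread between mice.

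In an F2 cross each mouse carries 0, 1 or both copies of a founder allele at a locus. A locus that acts additively places the heterozygote between the homozygotes. A contrast of the heterozygote with both homozygotes together favours transcripts for which it lies outside or at one end of them. Because 12 A and 20 B mice are pooled here, a transcript with an intermediate heterozygote can differ too. The liver of a leptin-deficient mouse makes large amounts of fatty acid and triglyceride from glucose, under the control of insulin, and the mitochondria of the hepatocyte burn fatty acids through the respiratory chain. Hepatocyte markers were measured in every mouse. The 14 probe sets of hepatocyte markers summed to 16.61, 16.92 and 17.09 on the log2 scale in heterozygotes (lowest, median, highest) and to 16.68, 16.91 and 17.09 in homozygotes, and 0 of the 14 passed the test. Whole liver was measured, so fewer cells of a type and less RNA per cell cannot be told apart.

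On MOE430A, 897 of 22626 probe sets (3.96%) differed between the genotypes at a Benjamini-Hochberg adjusted p under 0.05 in limma, 285 higher in heterozygotes (1.26%) and 612 lower (2.70%). The higher ones included enzymes of fatty acid synthesis and subunits of the respiratory chain, and the lower ones included receptors, channels and keratins. Of G protein-coupled receptors, ion channels and keratins 3.59%, 3.70% and 5.0% of probe sets were lower, against the 2.70% of all. With each array centred on its median, 0, 0 and 1 of them passed, and 94 of all 22626 probe sets were lower. The differences of the 897 probe sets were small. Their median size was 0.20 on the log2 scale for the probe sets higher in heterozygotes, a 1.15-fold difference, and 0.11 for the lower ones, a 1.08-fold difference. The largest was a 1.9-fold difference. The called probe sets with a single symbol stood for 747 genes. On MOE430B, 0 of 22511 probe sets (0%) passed the same limma test, although 1599 had an unadjusted p under 0.05, against 6356 on MOE430A. Array quality weights gave 1 call on MOE430B.

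The number of calls depended on sex and on 1 mouse. With sex as a covariate 7 probe sets of MOE430A passed (0.0309%), and without mouse 474, a heterozygous female whose MOE430A array correlated less with the others than most did, 3587 passed (15.9%). All 897 kept their direction with sex as a covariate, and 893 of them kept an unadjusted p under 0.05 there. Over all 22626 probe sets 20683 kept their direction and 4496 had such a p. Within females alone (19 heterozygotes, 11 homozygotes) all 897 had the same sign and 426 an unadjusted p under 0.05. Within males alone (8 and 21) these numbers were 896 and 613. The sign was shared by 18056 of all probe sets in females and 18847 in males. The 897 were picked on these same mice, so their shared sign is no independent evidence. No probe set passed the adjusted threshold in either sex by limma. An unadjusted p under 0.05 was reached by 1344 of all in females and 4089 in males. The sexes themselves differed at 10 of the 897, against 208 of all 22626 probe sets. The test of the difference between the sexes (genotype by sex) called 0 probe sets on each type, with 932 on MOE430A and 929 on MOE430B at an unadjusted p under 0.05.

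The probe sets that passed with sex as a covariate included *Ube2a*, *Rabl6*, *St8sia1*, *Gpc6*, *Ap2b1* and *Rps27l*. The promoters of *Ube2a* and *Ndufab1*, both higher in heterozygotes, and of *Rabl6* and *St8sia1*, both lower, are shown because these genes stand near the head of each direction. Each runs from 250 bases before to 50 bases after the RefSeq transcript start (build GRCm38.p6), 5′ to 3′ on the strand of the gene, with capitals for the GC box (GGGCGG, or CCGCCC on the other strand). The windows are chrX:36874045-36874344 on the plus strand and chr7:122101799-122102098, chr2:25608432-25608731 and chr6:142964403-142964702 on the minus strand.
Ube2a: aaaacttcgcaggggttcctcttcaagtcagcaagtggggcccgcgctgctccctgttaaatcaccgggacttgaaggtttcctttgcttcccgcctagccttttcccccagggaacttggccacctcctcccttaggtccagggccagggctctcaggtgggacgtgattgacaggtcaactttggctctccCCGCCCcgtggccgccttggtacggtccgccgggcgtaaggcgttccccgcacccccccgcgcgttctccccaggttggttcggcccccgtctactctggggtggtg
Ndufab1: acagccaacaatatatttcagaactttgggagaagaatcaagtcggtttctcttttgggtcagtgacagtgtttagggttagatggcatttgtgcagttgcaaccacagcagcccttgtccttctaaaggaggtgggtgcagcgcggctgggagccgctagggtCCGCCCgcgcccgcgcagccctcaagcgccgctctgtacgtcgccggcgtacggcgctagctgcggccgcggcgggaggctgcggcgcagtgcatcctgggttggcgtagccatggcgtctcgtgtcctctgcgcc
Rabl6: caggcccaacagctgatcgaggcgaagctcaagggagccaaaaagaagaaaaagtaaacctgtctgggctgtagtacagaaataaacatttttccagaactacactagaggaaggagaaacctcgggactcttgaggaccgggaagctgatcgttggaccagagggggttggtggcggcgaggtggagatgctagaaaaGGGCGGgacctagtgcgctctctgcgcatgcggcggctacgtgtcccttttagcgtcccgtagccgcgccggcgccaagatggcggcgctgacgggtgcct
St8sia1: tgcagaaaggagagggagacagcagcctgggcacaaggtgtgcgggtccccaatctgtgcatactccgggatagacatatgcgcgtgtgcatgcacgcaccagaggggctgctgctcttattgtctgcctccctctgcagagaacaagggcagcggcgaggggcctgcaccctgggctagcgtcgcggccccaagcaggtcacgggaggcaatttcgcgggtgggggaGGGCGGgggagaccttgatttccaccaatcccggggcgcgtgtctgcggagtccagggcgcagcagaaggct
Each of the 4 windows holds 1 GC box and no TATA box (TATAAA) and no ETS motif (CCGGAAG) on either strand, and they hold 20, 27, 22 and 19 CpG dinucleotides in the order shown. Promoters of this table were found for 196 genes higher in heterozygotes and 401 lower, and for 9887 genes of MOE430A in all. The GC box was found in 61.2% of the promoters of higher genes and 51.6% of those of lower genes, against 57.5% over MOE430A and 35.9% of all 27025 promoters. The TATA box was found in 8.16% and 14.2%, against 10.1% and 14.2%, and the ETS motif in 19.9% and 12.2%, against 15% and 9.12%. The ends of a GC box and an ETS motif can share letters, and no other pair of these motifs can. A match to these letters is a description of the window and not a site of binding.

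*Ube2a*, on the X chromosome, encodes a ubiquitin-conjugating enzyme and had the smallest adjusted p (0.00822). Its level was 8.75, 8.99 and 9.48 in heterozygotes (lowest, median, highest, log2) and 8.47, 8.78 and 9.0 in homozygotes. The heterozygotes were higher by 0.23 ± 0.04 (SE), by 0.20 in females and 0.23 in males, and the ranges overlapped. *Ndufab1*, a mitochondrial acyl carrier protein and subunit of complex I, was measured at 9.87, 10.27 and 10.77 in heterozygotes and at 9.75, 9.99 and 10.35 in homozygotes. It was higher by 0.25 ± 0.05 (adjusted p = 0.0189), by 0.25 in females and 0.16 in males. Citrate synthase (*Cs*), which opens the citric acid cycle, was higher by 0.27 ± 0.06, with 9.17, 9.47 and 9.82 in heterozygotes against 8.74, 9.24 and 9.82 in homozygotes. Enzymes of cofactor and carbon metabolism stood beside it among the leading genes. NAD kinase (*Nadk*), which makes NADP, was higher by 0.24, transaldolase (*Taldo1*) of the pentose phosphate pathway by 0.25, and phosphoserine phosphatase (*Psph*), the last enzyme of serine synthesis, by 0.18. *Slc25a44*, a mitochondrial carrier of branched-chain amino acids, was higher by 0.24. The ATP synthase subunit *Atp5l* was higher by 0.21, the actin-nucleating subunit *Arpc1a* by 0.24 and *Tspyl1* by 0.29. With sex as a covariate these 10 genes kept differences of 0.18 to 0.25, and *Ube2a* was the 1 of them that passed (adjusted p = 0.043).

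Of the leading genes lower in heterozygotes, *Rabl6*, a small GTPase-like protein encoded on Chromosome 2, was measured at 6.56, 6.81 and 7.02 in heterozygotes and at 6.81, 6.97 and 7.14 in homozygotes. It was lower by a log2 difference of -0.14 ± 0.03 (adjusted p = 0.0111), and this was -0.15 in females and -0.12 in males. *St8sia1*, a sialyltransferase of ganglioside synthesis, stood at 5.25, 5.44 and 5.66 in heterozygotes against 5.36, 5.6 and 5.75 in homozygotes, a difference of -0.15 ± 0.03. The beta subunit of the AP-2 clathrin adaptor (*Ap2b1*) differed by -0.19 ± 0.04 and the cell-surface proteoglycan *Gpc6* by -0.14 ± 0.03. These 4 also passed with sex as a covariate (adjusted p = 0.043 each). The centrosomal genes *Cep350* and *Cntrl* differed by -0.21 and -0.13, the transcription factor *Klf4* by -0.13, *Prp2* by -0.14, the hair keratin *Krt81* by -0.11 and the kinase anchor *Akap2* by -0.11, and none of these 6 passed with sex as a covariate (adjusted p from 0.057 to 0.086).

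**Figure D1:**
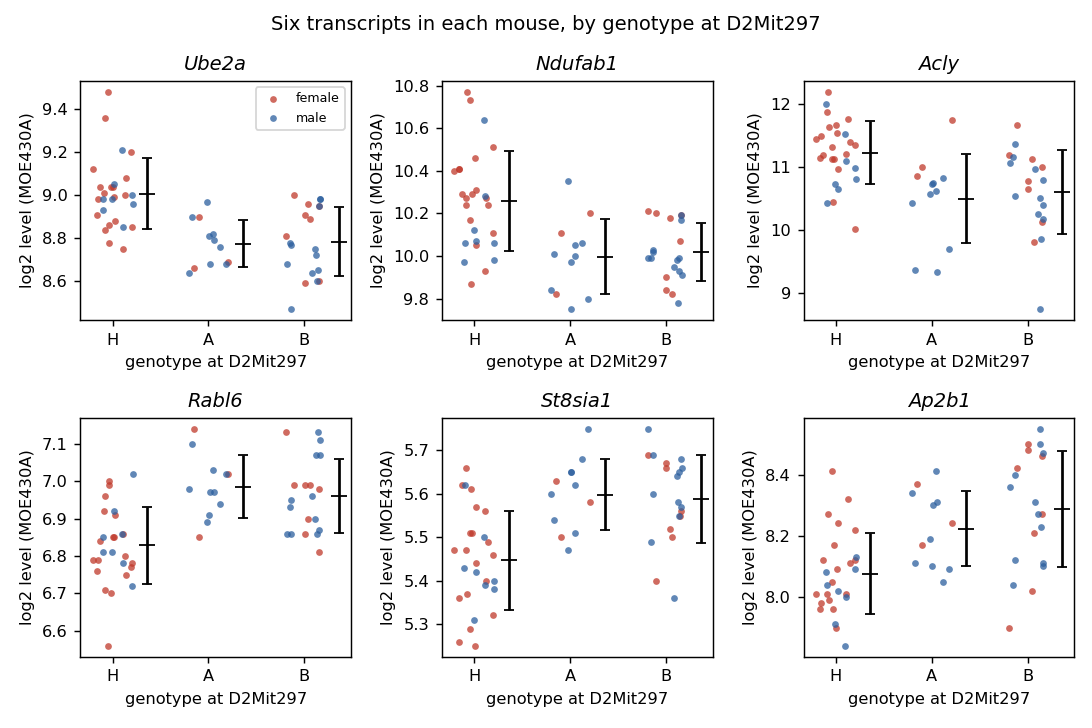
Log2 level on MOE430A of 6 transcripts in each mouse (points, females and males in separate colours), by genotype at *D2Mit297*, with the mean and SD of each genotype at its right. Heterozygotes lay higher for *Ube2a*, *Ndufab1* and *Acly* and lower for *Rabl6*, *St8sia1* and *Ap2b1*, with overlap of the mice in every panel.

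Over all mice, genes of fatty acid and triglyceride synthesis had the highest median difference of the lists examined on MOE430A, which was not so in females alone. Of 53 probe sets (28 genes) 11 were higher in heterozygotes (20.8%, against 1.26% over MOE430A) and 0 lower, and the median difference of the list was 0.26, against -0.02 over all probe sets. *Acly*, the citrate lyase that supplies acetyl-CoA for lipid synthesis, stood at 10.02, 11.22 and 12.20 in heterozygotes and at 8.75, 10.70 and 11.76 in homozygotes. On that 1 probe set the difference was 0.66 ± 0.15 (limma, adjusted p = 0.0209). As the mean of the MOE430A probe sets of *Acly* it was smaller, 0.41. Fatty acid synthase (*Fasn*) stood at 10.15, 11.17 and 11.98 in heterozygotes and at 8.63, 10.93 and 12.00 in homozygotes. It was higher by 0.65 ± 0.16 (adjusted p = 0.0285), with 0.26 in females and 0.82 in males. For both genes the lowest livers were homozygotes, and the ranges overlapped. Malic enzyme (*Me1*), a source of NADPH, was higher by 0.51 ± 0.13 over all mice, and it was also higher in females than in males by 0.50 (adjusted p = 0.032). The 2 probe sets of *Scd1*, the stearoyl-CoA desaturase, differed by 0.58 and 0.83 without passing the test (adjusted p = 0.0915 and 0.0632). With sex as a covariate 0 of the 53 passed and the median difference was 0.15. It was 0.08 in females, below the 0.10 of the respiratory chain, and 0.17 in males.

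Other lists of liver metabolism held members higher in heterozygotes and 0 lower, against 1.26% higher and 2.70% lower over MOE430A. In gluconeogenesis and glycolysis 3 of 17 probe sets were higher (17.6%), both of pyruvate kinase (*Pklr*, 0.31 ± 0.09 and 0.26 ± 0.08) and 1 of phosphoglycerate mutase (*Pgam1*, 0.19 ± 0.04). In fatty acid oxidation 4 of 38 were higher (10.5%). The peroxisomal enzyme *Ehhadh* was higher by 0.45 ± 0.12, and the mitochondrial enzymes *Acaa2* and *Hadh* by 0.33 and 0.19. *Slc25a20*, which carries acylcarnitines into the mitochondrion, was higher by 0.19. In cholesterol synthesis and uptake 2 of 37 were higher (5.41%), *Sc5d*, a desaturase near the end of the pathway, by 0.51 ± 0.14, and phosphomevalonate kinase (*Pmvk*) by 0.25 ± 0.07. The median of the cholesterol list was 0.08 over all mice, -0.06 in females and 0.06 in males.

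Of 119 probe sets of respiratory chain complexes I to IV, 14 were higher in heterozygotes (11.8%) and 0 lower, and 106 lay above 0. Beside *Ndufab1* these included the complex I subunits *Ndufb6* (0.18 ± 0.05) and *Ndufc1* (0.15 ± 0.04) and the complex III subunit *Uqcrh* (0.12 ± 0.03). Of 32 probe sets of the ATP synthase, which makes ATP from the proton gradient, 5 were higher (15.6%) and 0 lower. *Atp5j2* was higher on both of its probe sets (0.19 ± 0.05 and 0.15 ± 0.04), *Atp5b*, a catalytic subunit, by 0.16 ± 0.04, *Atp5pb* of the stalk by 0.20 ± 0.06, and *Atp5l* is given above. The medians of both lists, each 0.10, were of like size in females (0.10 for the respiratory chain and 0.09 for the ATP synthase) and males (0.07 and 0.07). They were 0.03 and 0.03 after the arrays were quantile normalized again. Proteasome subunits had 2 of 67 higher (2.99%, against 1.26% over MOE430A), *Psmd11* (0.29) and *Psmd4* (0.19). The endoplasmic reticulum stress genes had 1 of 43 higher (2.33%), *Edem1* (0.17). The median levels of these 2 lists, 8.77 and 8.44, lay in the highest of 5 level groups, where 187 of 4525 probe sets were higher. Of 100 probe sets of cytosolic ribosomal proteins 2 were higher (2.0%), both of *Rps27l* (0.16 and 0.18). Another 2 were lower (2.0%, against 2.70% over MOE430A), *Rps9* and *Rps25* (-0.10 each). The median of the ribosomal list was 0.03 over all mice and -0.01 after quantile normalization.

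Lists of receptors, channels and structural proteins known mainly from other tissues held members lower in heterozygotes and 0 higher. Of 362 probe sets of G protein-coupled receptors 13 were lower (3.59%, against 2.70% over MOE430A), and 330 lay below 0 with a median of -0.05. *Gnrhr*, the receptor of gonadotropin-releasing hormone, stood at 6.12, 6.39 and 6.70 in heterozygotes and at 6.38, 6.53 and 6.74 in homozygotes, a difference of -0.13 ± 0.04. The calcitonin receptor *Calcr* (-0.11), the prostaglandin E receptor *Ptger3* (-0.11) and the orphan receptor *Gpr50* (-0.12) were lower too. Of 6 receptors that the study drew for this locus from these same mice, which is no independent evidence of their direction, *Npy6r* was lower (-0.16 ± 0.04, adjusted p = 0.037). *Brs3* and *Drd2* differed by -0.09 each without passing (adjusted p = 0.0548 and 0.0765), and *Npy1r*, *Glp1r* and *Cckbr* did not pass either (differences from -0.03 to -0.09).

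Ion channels had 6 of 162 probe sets lower (3.70%), among them the potassium channel genes *Kcnab3* (-0.10) and *Kcna2* (-0.11), the calcium channel subunit *Cacng1* (-0.09) and *Trpm1* (-0.08). GABA and glutamate receptor subunits had 2 of 35 lower (5.71%), *Gabrg3* (-0.13) and *Grik1* (-0.12). Keratins and hair proteins had 4 of 80 lower (5.0%), *Krt81*, *Krt84*, *Krtap13* and *Krtap15* (-0.10 to -0.18), and 78 of the 80 lay below 0. These shares stood nearer to the 2.70% of all probe sets than the shares of the metabolic lists stood to 1.26%. Most metabolic lists were of high level, however. Their median levels were 9.71 for fatty acid and triglyceride synthesis, 10.3 for the respiratory chain and 10.7 for the ATP synthase, and 7.85 for cholesterol. Over all genes in the highest of 5 level groups (from 8.31), 187 of 4525 probe sets were higher in heterozygotes. With each array centred on its own median, 0 of the 362 receptor probe sets passed, against 12 of the 119 of the respiratory chain. Of all 22626 probe sets 94 were lower and 281 higher in that setting, so few lower calls were left in any list. The median difference over all probe sets moved from -0.02 to -0.00 with centring. The interferon response list had 0 of 28 called in either direction with a median of -0.04. Secreted plasma proteins had 1 of 34 called (2.94%), *Hc*, described below, and a median of -0.00.

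**Figure D2:**
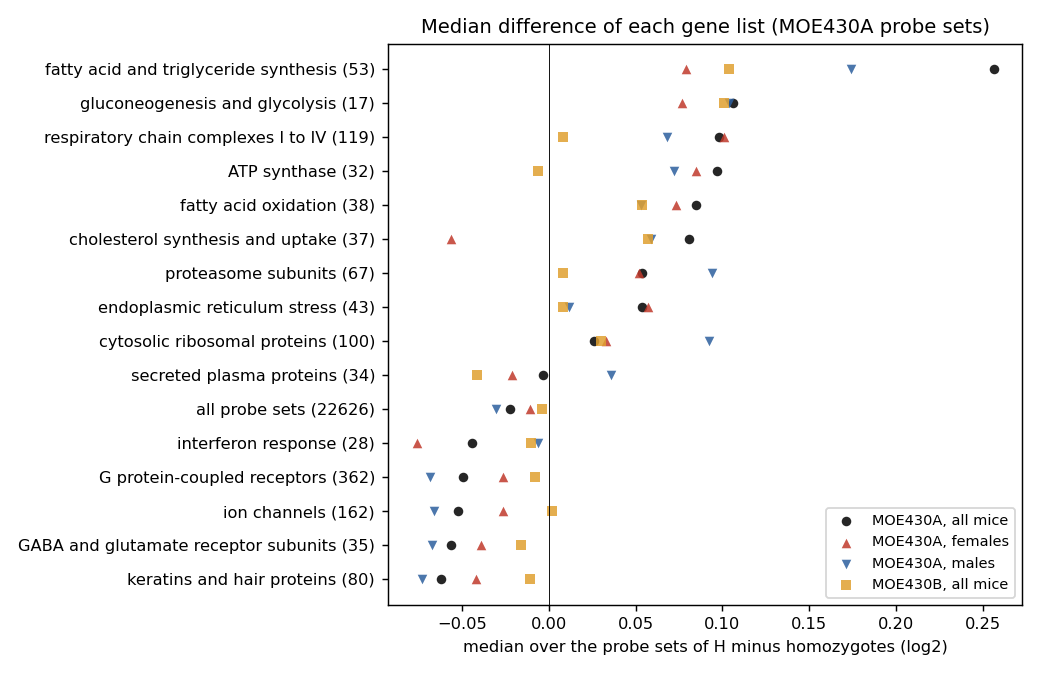
Median over the probe sets of each gene list of the log2 difference, heterozygotes minus homozygotes, on MOE430A in all mice, females and males, and on MOE430B in all mice, with the number of MOE430A probe sets in brackets. In all mice, lipid and mitochondrial lists lay above 0 on MOE430A and receptors, channels and keratins below, by -0.06 to -0.05. In females the cholesterol list lay at -0.06, and on MOE430B most medians lay nearer to 0.

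Of the lists for other cell types, those of stellate cells and lymphocytes held members that passed. The stellate cell list had 3 of 11 probe sets lower in heterozygotes (27.3%, against 2.70% over MOE430A), *Lrat*, which esterifies retinol (-0.11), and both probe sets of *Rgs5* (-0.13 and -0.15). Of the 11 probe sets (6 genes) 3 lay above 0, and on MOE430B all 3 stellate probe sets lay above 0. Summed over the list the stellate markers spanned 10.58 to 11.20 in heterozygotes and 10.63 to 11.24 in homozygotes, with medians of 10.85 and 10.83. The lymphocyte list had 1 of 6 lower (16.7%; *Cd79a*, -0.12), and 0 were called among 6 probe sets of Kupffer cells, 7 of sinusoidal endothelium, 5 of cholangiocytes, 2 of erythroid cells, 9 of pancreatic acinar cells, 5 of adipocytes, 5 of neurons and 4 of skeletal muscle. The summed acinar markers reached 11.37 in heterozygotes and 12.77 in homozygotes, with medians of 11.18 and 11.27. The part of other cell types in the gene differences was not tested.

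The direction of a difference went with the level of the transcript. When the probe sets of MOE430A were split into 5 equal groups by their mean level, the median difference was -0.03, -0.04, -0.03, -0.02 and 0.05 from the lowest to the highest group. In the highest group 187 probe sets were higher and 48 lower in heterozygotes, and in the lowest 9 were higher and 128 lower. The called probe sets that were higher had a median level of 8.96 and the lower ones 6.84, against 7.04 over all. On MOE430B the median difference of its own 5 level groups ran from -0.01 to 0.00.

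Technical values of the MOE430A arrays moved with the genotype as well. The array median was 7.02 ± 0.02 in heterozygotes and 7.04 ± 0.02 in homozygotes (SD, n = 27 and 32, permutation test, adjusted p = 0.00492), and the interquartile range, a measure added after seeing the data, was 2.19 ± 0.04 against 2.15 ± 0.03 (permutation test, adjusted p = 0.00106). The poly-A spike controls, which no mouse makes, averaged 4.58 ± 0.06 in heterozygotes and 4.62 ± 0.05 in homozygotes (permutation test, adjusted p = 0.0188). The 3′ minus 5′ difference of the *Actb* controls, which grows as RNA is shortened, was 0.70 ± 0.17 against 0.86 ± 0.25, and that of *Gapdh* 0.40 ± 0.16 against 0.54 ± 0.19 (permutation tests, adjusted p = 0.0259 and 0.0188). The same RNA on MOE430B gave 0.85 ± 0.18 against 0.99 ± 0.25 for *Actb* and 0.11 ± 0.16 against 0.24 ± 0.19 for *Gapdh* (permutation tests, adjusted p = 0.027 and 0.0259). Of the 12 values other than the interquartile ranges, 6 passed over all mice, 0 in females alone and 1, the MOE430A array median, in males alone. The interquartile ranges were adjusted apart from these 12. On MOE430A the interquartile range also passed in males alone (2.189 against 2.145, permutation test, adjusted p = 0.0086) and not in females alone. The first principal component carried 20.4% of the variance on MOE430A, with a median of 0.06 in heterozygotes and -0.03 in homozygotes, and with it as a covariate 3 probe sets passed. The part of these values in the gene differences was not tested.

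With each array centred on its median 375 probe sets passed, 281 higher in heterozygotes and 94 lower, so the main split of 285 to 612 turned over, although all 897 kept their sign. After quantile normalization 102 passed, 34 higher and 68 lower, of which 95 were among the 897, and all 897 kept their sign. Over all 22626 probe sets 19933 kept their sign after centring and 18969 after quantile normalization.

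Calls were spread over the genome. Of 1625 probe sets of genes on Chromosome 2, 18 were higher in heterozygotes and 31 lower (3.02% in all), and over single chromosomes the share called ran from 2.83% on Chromosome 19 to 5.54% on the X chromosome. The Chromosome 2 genes with the smallest p were *Rabl6* and *Cntrl*, described above, *Gad1*, which makes GABA (-0.10 ± 0.02), and *Rabgap1* (-0.18 ± 0.04). Called against the markers next to it, *D2Mit297* shared its class (heterozygote or homozygote) with *D2Mit241* at 26.4 cM in 55 of 57 mice and with *D2Mit296* at 19.6 cM in 52 of 58. *D2Mit9* at 42.9 cM shared it in 42 of 59. Heterozygotes at *D2Mit241* differed from homozygotes at 1060 probe sets of MOE430A, and at *D2Mit2*, *D2Mit296*, *D2Mit9* and *D2Mit327* 0 passed in limma. At an unadjusted p under 0.05 these 4 markers had 988, 3148, 3538 and 2016 probe sets, against 6356 at *D2Mit297* and 6108 at *D2Mit241*. The markers other than *D2Mit297* and *D2Mit9* were added after the data were seen. These marker counts come from fits without sex, and at *D2Mit297* 7 probe sets passed with sex as a covariate. The spread of the sexes over the genotypes of the other markers was not examined, so the part of sex in these counts was not tested.

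**Figure D3:**
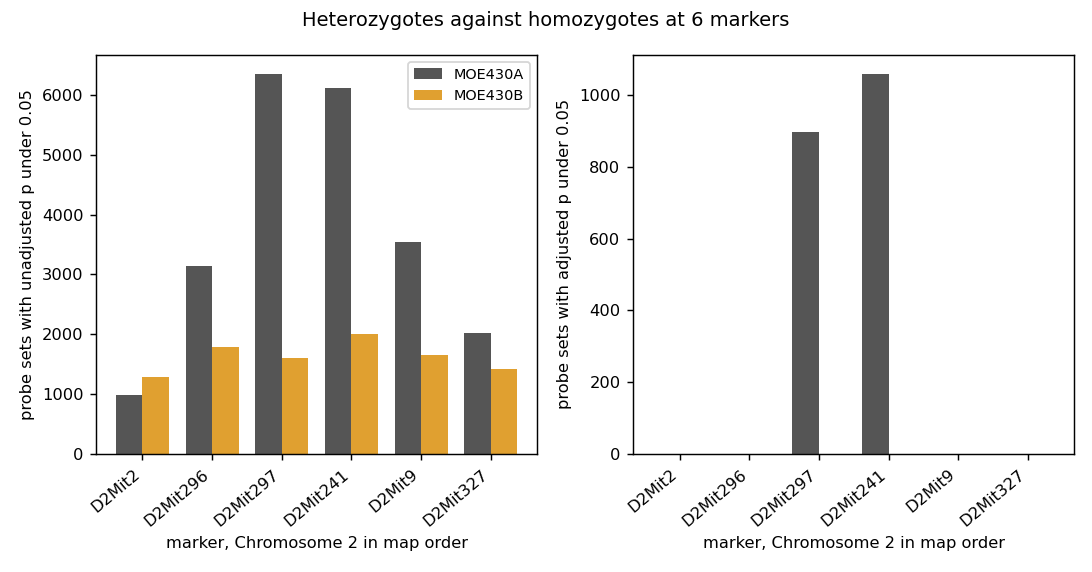
Number of probe sets of MOE430A and MOE430B with an unadjusted (left) and an adjusted (right) p under 0.05 in limma for heterozygotes against homozygotes at 6 markers of Chromosome 2 in map order. On MOE430A the counts were highest at *D2Mit297* and *D2Mit241*, and on MOE430B the unadjusted counts ran from 1280 to 2000. Sex was not a covariate in these fits.

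The homozygotes were also taken apart. All but 1 of the 897 probe sets had the same sign against A alone and against B alone, against 18992 of all 22626. The 897 were picked against these same A and B mice, so this is no independent evidence. Alone, the contrast of heterozygotes with 12 A mice called 0 probe sets of MOE430A and that with 20 B mice called 1, *Hc*. In a model with an additive and a dominance term, the additive term called 1 of 22626 probe sets on MOE430A (0.00442%) and 3 of 22511 on MOE430B (0.0133%), and the dominance term called 1543 and 1. *Hc* encodes complement component 5 and lies on Chromosome 2. Its level was 9.78 ± 0.47 in heterozygotes, 10.2 ± 0.39 in A and 8.26 ± 0.39 in B mice (SD, n = 27, 12 and 20), so the heterozygotes lay between the homozygotes and nearer to A. Each B allele went with a log2 change of -0.98 (limma, adjusted p = 1.5e-14). Its pooled difference of 0.78 ± 0.21 (adjusted p = 0.0319) thus joined -0.44 against A alone with a large difference against B. The 3 additive probe sets of MOE430B carry no symbol. The one with the smallest p averaged 7.32 ± 0.14 in heterozygotes, 7.58 ± 0.18 in A and 7.09 ± 0.16 in B mice. The next averaged 6.57 ± 0.17, 6.89 ± 0.22 and 6.37 ± 0.22 in the same order, and the last 3.81 ± 0.17, 3.96 ± 0.21 and 3.6 ± 0.14. In all 3 the heterozygotes were intermediate.

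**Figure D4:**
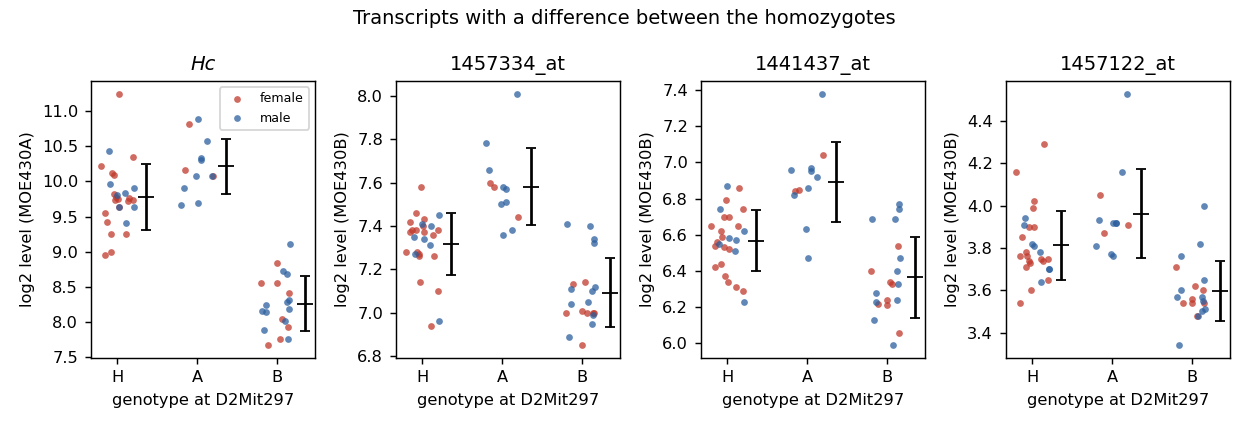
Log2 level in each mouse of the 4 probe sets with an additive call, by genotype at *D2Mit297*, with means and SD. For *Hc* the means were 9.78 in heterozygotes, 10.2 in A and 8.26 in B mice, and the A and B mice of the 3 unnamed MOE430B probe sets were set apart in the same direction.

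Genes with probe sets on both array types gave a check of the MOE430A calls by gene, which can rest on different probe sets. There were 3807 such genes, each taken on each type by its probe set with the smallest p. Of these, 247 were called on MOE430A, 0 on MOE430B and 0 on both. On MOE430B 151 of the 247 (61.1%) had the same sign as on MOE430A, against 2205 of all 3807 (57.9%). The sign was shared by 36 of 63 genes higher in heterozygotes and by 115 of 184 lower. Of the 247, 29 had the same sign and an unadjusted p under 0.05 on MOE430B, and 8 had such a p with the opposite sign. Their median size was 0.12 on MOE430A, and in the same direction it was 0.02 on MOE430B. With the mean over a gene's probe sets in place of the smallest p, 298 genes were called on MOE430A, and 199 of them (66.8%) shared the sign, against 58.2% of all.

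Gene by gene the values on MOE430B were near 0. *Rabl6* differed by -0.14 on MOE430A and by -0.06 on MOE430B, where its probe set stood at 3.61, 3.89 and 4.17 in heterozygotes and at 3.65, 3.88 and 4.28 in homozygotes. *St8sia1* differed by -0.15 and 0.03, *Cep350* by -0.21 and -0.04, *Ap2b1* by -0.19 and -0.02, and *Ndufab1* by 0.25 and -0.03. *Gpc6* (-0.14 and -0.06, unadjusted limma p of 0.0091 on MOE430B) and *Agap1*, which acts on the small GTPases of the Arf family (-0.12 and -0.08, 0.0259), came nearest to the same difference on both types. The noncoding RNA *Tug1* differed by -0.12 and 0.07, on different probe sets. Its MOE430B probe set is also carried by MOE430A, where it differed by 0.06, in the same direction as on MOE430B. None of these passed on MOE430B (adjusted p from 0.594 to 0.987 over the 10 genes with the smallest p on MOE430A, by which they were chosen). Different probe sets of a gene can report different parts of its transcripts, so a comparison of the same probe sets was made too.

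The same probe set was present on both types in 100 cases. Of these 88 had the same sign on both, and the median size of the difference was 0.06 on each type. Across these probe sets, which share their mice and are not independent, the differences correlated at r = 0.881, and across mice the median correlation of a probe set with itself on the other type was 0.603 (0.146 to 0.900). An unadjusted limma p under 0.05 was reached by 33 of the 100 on MOE430A, against 6356 of all 22626. On MOE430B 23 of the 100 reached it, against 1599 of all 22511, and 17 did so on both types with the same sign. Of the 100, 6 were called on MOE430A, and all 6 had the same sign on MOE430B, where none passed. *Abhd17a* was higher in heterozygotes by 0.28 on MOE430A and differed by 0.28 on MOE430B, *Psap*, the precursor of the saposins of the lysosome, by 0.19 and 0.19, and *Trappc4*, of vesicle transport, by 0.17 and 0.14. *Psph* differed by 0.18 and 0.14, *Hp1bp3* of chromatin by 0.12 and 0.12, and the repressor *Cic* by -0.10 and -0.05. Their unadjusted limma p on MOE430B ran from 0.0006 for *Abhd17a* to 0.13 for *Cic*.

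A difference of effect between the types was tested within mice. Of 3807 genes 2 passed (0.0525%), *Acly* and *Pou2f2*, and of the 100 shared probe sets 0 passed in limma (2 at an unadjusted p under 0.05, smallest adjusted p of 0.735). *Acly* differed by 0.41 as the mean of its MOE430A probe sets and by -0.01 on its MOE430B probe set. Without mouse 474, 31 genes passed, and with sex as a covariate 0.

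**Figure D5:**
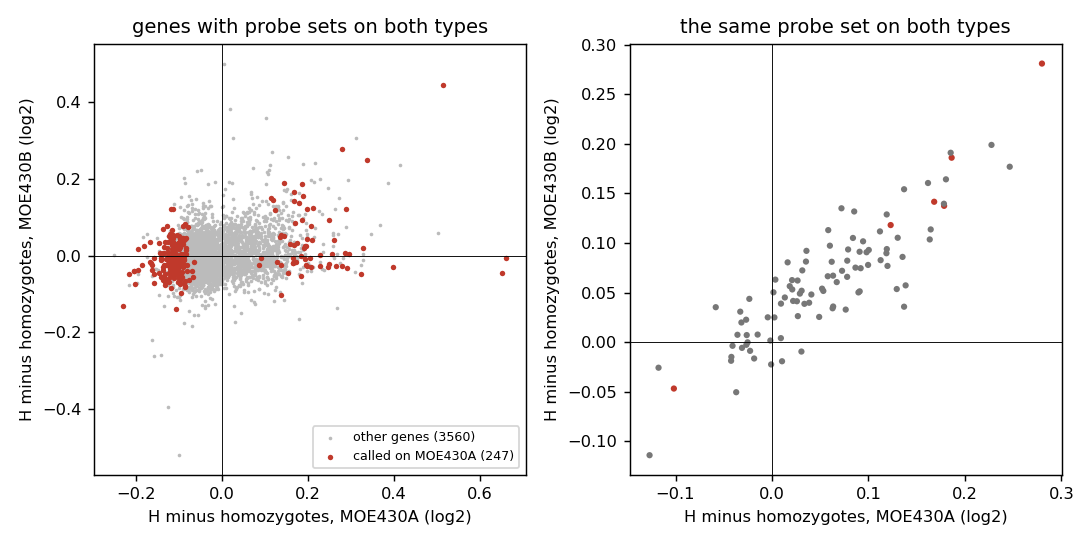
Log2 difference, heterozygotes minus homozygotes, on MOE430A (horizontal) and MOE430B (vertical), for 3807 genes by the probe set with the smallest p (left) and for the 100 probe sets carried by both types (right), with those called on MOE430A in red. The 247 called genes kept their sign on MOE430B in 61.1%, and the shared probe sets in 88 of 100.

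On MOE430B alone the probe sets nearest the threshold did not pass it. *Herc6*, an interferon-induced ubiquitin ligase, stood at 4.59, 4.78 and 4.96 in heterozygotes and at 4.72, 4.91 and 5.24 in homozygotes, a difference of -0.15 ± 0.03 (adjusted p = 0.0527). It passed without mice 223, 474 and 608. *Sphkap* (-0.12), *Rc3h2* (-0.14), *Ankrd6* (-0.10) and *Sapcd2* (-0.10) followed on the lower side. On the higher side stood *Cyp2r1*, a vitamin D 25-hydroxylase (0.31 ± 0.07), *Abhd17a* (0.28), *Cutal* (0.23), *Usf3* (0.20) and *Vps51* (0.20), with adjusted p from 0.351 to 0.450. The fatty acid and triglyceride list had 0 of 13 called on MOE430B with a median of 0.10, and the G protein-coupled receptors 0 of 199 with a median of -0.01. The respiratory chain list had 0 of 13 with a median of 0.01, and 0 members of any list were called.

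Plasma and RT-qPCR values of the same mice were compared by a permutation test, and 6 of 22 passed after adjustment. Plasma glucose was 271 ± 93.8 mg/dl in heterozygotes and 358.9 ± 125 mg/dl in homozygotes at 8 weeks (SD, n = 27 and 30, adjusted p = 0.0179) and 306.8 ± 93.7 against 404 ± 123 mg/dl at 10 weeks (n = 27 and 32, adjusted p = 0.0179). Insulin at 8 weeks was 1.52 ± 0.27 in heterozygotes and 1.27 ± 0.33 in homozygotes on the log10 scale of ng/ml (n = 26 and 28, adjusted p = 0.0179). Insulin at 10 weeks, body weight at both ages, plasma triglyceride and liver triglyceride did not pass. Body weight at 8 weeks was 53.23 ± 4.34 g in heterozygotes and 53.24 ± 5.61 g in homozygotes. It differed by -3.46 g in females alone (permutation p = 0.0542) and by 3.42 g in males alone (exact permutation p = 0.152). Against A alone, body weight at 10 weeks was 60.7 ± 4.86 g in heterozygotes and 55.27 ± 5.09 g in A mice (n = 27 and 12, permutation test, adjusted p = 0.0318), and insulin at 8 weeks did not pass (adjusted p = 0.189).

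By RT-qPCR relative to beta-actin, fatty acid synthase stood at -5.80 ± 0.83 cycles in heterozygotes and at -6.85 ± 1.39 in homozygotes (n = 19 and 30, permutation test, adjusted p = 0.0179). The desaturase SCD1 stood at 2.26 ± 0.87 against 1.29 ± 1.72 (n = 27 and 32, adjusted p = 0.036) and the phospholipid transfer protein PLTP at -2.60 ± 0.87 against -3.74 ± 1.45 (n = 18 and 30, adjusted p = 0.0179). The sign of these cycle values is not stated in the sources used here. They increased with the array level of the same gene, with r = 0.928 and rho = 0.807 for SCD1 (n = 59), 0.894 and 0.854 for fatty acid synthase (n = 49) and 0.912 and 0.902 for PLTP (n = 48). Each had a permutation p of 1e-05, the smallest that the draws can give and the same after adjustment over 3 relations, and r was 0.895 to 0.899 without the 2 farthest mice, and 0.863 to 0.945 within each sex. A higher value is therefore read as more transcript. When genotypes were permuted within each sex 0 of the 22 passed (adjusted p = 0.222 for the smallest). Glucose at 10 weeks then differed by -60.6 mg/dl (permutation p = 0.0338) and insulin at 8 weeks by 0.21 (permutation p = 0.0181). In females alone glucose at 10 weeks differed by -28.6 mg/dl (permutation p = 0.438), and in males alone by -99.1 mg/dl (exact permutation p = 0.0286, adjusted p = 0.334).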

How the data were processed

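Labelled RNA from the liver of each of 60 mice was hybridized to an MOE430A array and then to an MOE430B array. The authors read the arrays with MAS5 and summarised each array type apart by RMA, which gave the log2 expression values deposited here. The version of RMA is not given in the sources. Glucose, weight and RT-qPCR values were used as the authors deposited them, and insulin as their log10 values, while plasma triglyceride was put on a log10 scale here. Genotypes were read from the table of 194 markers, and a table of 145 markers served as an alternative.

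After control probe sets were left out, 22626 and 22511 probe sets were analysed, of which 20380 and 14661 had 1 gene symbol in the platform annotation. Probe sets with several symbols were given no name. Heterozygotes were compared with homozygotes with limma 3.58.1 in R 4.3.3, with Benjamini-Hochberg adjustment over all probe sets of a type. The RNA of a mouse is on both types, so effects of the types were compared on within-mouse differences, which take the mouse as the block. Phenotypes and technical values were tested by 100000 permutations of the genotypes, two-sided, or by the exact permutation test where a group was under 10 mice. Adjustment was over 22 and 12 values, and the interquartile ranges, added after seeing the data, were adjusted apart. On simulated data, limma recovered 60.5% of 200 probe sets of 22626 shifted by 0.15 on MOE430A and 87.5% of 200 shifted by 0.25, and on MOE430B 76.5% and 93.5% of 200 of 22511. The simulated noise was drawn for each probe set apart, with the genotypes shuffled. It held no variation shared across an array and no sex difference, so these shares are not the power on the real arrays.

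The marker, the gene lists and the rule for named genes were chosen with earlier results of these data known. Named genes were the 10 single-symbol probe sets with the smallest p in each direction (5 where fewer passed). Of genes with probe sets on both types, the 10 with the smallest p on MOE430A were named. Up to 4 members of each of 26 lists, the additive calls, *Hc*, *Scd1*, the ATP synthase subunits and 6 receptors were named too. Named outside this rule, after their values were seen, were *Pou2f2* and the 6 called probe sets that both types carry. Promoters were taken from RefSeq (GRCm38.p6). Alternatives changed the covariates, the mice, the marker, the homozygotes, the scaling, the weights and the filter on low values. Other steps ran in Python 3.11.15 (scipy 1.17.1, numpy 2.4.6, matplotlib 3.10.9 and pandas 2.3.3). Precision is limited by the number of mice. Mice without arrays were not used here.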

Additional observations from a re-analysis of the deposited data

Results flagged for a closer look

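A test of the difference between the array types marked 2 genes. The genotype difference of *Acly* was larger on MOE430A than on MOE430B by 0.4121 on the log2 scale (heterozygotes minus homozygotes, limma on within-mouse differences, adjusted p = 0.0487). It was 0.41 as the mean of the MOE430A probe sets and -0.01 on the MOE430B probe set. For *Pou2f2*, a transcription factor of lymphocytes, the MOE430A difference minus the MOE430B difference was -0.1617 (adjusted p = 0.0487), with -0.10 on MOE430A and 0.06 on MOE430B. Without the mouse as a block 0 genes passed, and with sex as a covariate 0 passed as well. Neither gene has a probe set that both types carry, so the probe set and the array type cannot be told apart. Of the 100 probe sets on both types 0 passed this test (limma, smallest adjusted p of 0.735).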

How the results depend on the processing

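Calls on MOE430A, 897 in the main comparison, numbered 7 with sex as a covariate, 3 with the first principal component, 1543 with the additive code, 3587 without mouse 474, 3547 without mice 223, 474 and 608, 3590 without mice with an array apart (167, 474 and 559) and 4779 with array quality weights. They numbered 0 in females, 0 in males, 0 against A alone, 1 against B alone, 0 at *D2Mit9*, 102 after quantile normalization and 375 after median centring. With choices made after seeing the data they were 0 at each of *D2Mit296*, *D2Mit2* and *D2Mit327*, and 354 without mouse 474 and with sex as a covariate. Only the 1060 at *D2Mit241*, the smaller genotype table (897), the filter on low values (637) and a trended prior (867) stayed within 1.5 times the main count. Calls on MOE430B, 0 in the main comparison, were 1 with the additive code, without mice 223, 474 and 608, with weights and at *D2Mit241*, and 2 against A alone. The difference of effect between types called 2 genes with the mouse as the block, 0 with no replicate block, 1 with principal components, 31 without mouse 474 and 0 with sex. The dominance term called 1543 on MOE430A and 4176 without mouse 474, 2 with the principal component and 0 with sex, and on MOE430B 1, and 0 in these 3 settings. Members called over the 15 pathway lists numbered 72, and 0 with the principal component, 305 without mouse 474, 1 with sex, and, added later, 6 after quantile normalization and 44 after centring. Of the 22 phenotypes 6 passed, and 0 with sex, in females, in males, against B alone and at *D2Mit9*. Against A alone 6 passed, with body weight at 10 weeks in place of insulin at 8 weeks. Of the 12 technical values 6 passed, and 0 in females and 1 in males. The direction turned for *Hc* against A alone (-0.44), for *Krt84* at *D2Mit9* (0.0102) and for insulin at 8 weeks at *D2Mit9* (-0.033). Of 70 named called probe sets 6 passed with sex as a covariate, 70 without mouse 474, 19 after quantile normalization, 52 after centring and 0 in either sex alone. Settings with fewer mice have less power by construction, and elsewhere the cause was not tested. The founder strain of each allele and the gene of the unnamed probe sets are not known here.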
